A study of Mus musculus with 8 samples.

Results

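The 8 genes described here belong to the mouse Ms4a family: Ms4a4a, Ms4a4b, Ms4a4c, Ms4a6b, Ms4a6c, Ms4a6d, Ms4a7 and Ms4a8a. They were picked by gene symbol and Entrez identifier out of 18125 genes listed in the deposited tables. The reference names 21 Ms4a genes. Of the 13 others, 5 were listed in at least 1 table and 8 were in none. The series asked how macrophages that lack the creatine transporter Slc6a8 respond to polarizing cytokines, and it holds 8 RNA-seq libraries, 1 for each group, from C57BL/6 mice. Peritoneal macrophages came from wild-type or Slc6a8-/y mice given 1 mL of 4% thioglycollate 3 to 4 days earlier, and received no cytokine or 12 hours of interferon-gamma (IFN-gamma, 10 ng/mL). Macrophages of the other kind came from wild-type or Slc6a8-/y bone marrow grown in 10% M-CSF for 5 days, and received no cytokine or 6 hours of IL-4 (10 ng/mL). They are called bone marrow-derived macrophages below. The age of the mice and the number pooled for each library were not given in the sources used here. Below, WT is wild-type and KO is Slc6a8-/y.

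MS4A proteins are small membrane proteins that cross the membrane several times, with both ends inside the cell, and many associate with receptors in the same membrane. The family is best known for CD20, the B cell antigen encoded by Ms4a1, and for the beta chain of the high-affinity IgE receptor of mast cells, encoded by Ms4a2. The Ms4a4, Ms4a6 and Ms4a7 genes are mainly myeloid or lymphoid, and MS4A4A has been found in macrophages together with Dectin-1, the beta-glucan receptor encoded by Clec7a.

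Each library had 10812678 to 11065427 counts in peritoneal macrophages and 20553654 to 21221526 in bone marrow-derived macrophages. Slc6a8 was at 163.54 and 39.52 FPKM (fragments scaled by transcript length and library size) in the 2 WT peritoneal libraries and 0.73 and 0.18 in the KO ones. It was at 97.34 and 87.92 FPKM in WT bone marrow-derived macrophages and 1.71 and 1.15 in KO. All 12 general macrophage markers were listed in every library, and the sum of their levels was 8071 to 11660 FPKM in peritoneal and 12890 to 16060 FPKM in bone marrow-derived macrophages. Lyz2 was the largest part of each sum, at 4277.32 to 10554.1 FPKM. Single markers did not all follow the sum. Adgre1 was at 31.84 to 48.9 FPKM in peritoneal and 367.59 to 477.8 FPKM in bone marrow-derived macrophages, while Cd68 was at 1549.03 to 2625.67 and 1723.54 to 1751.21 FPKM. With 1 library a group, a ratio of 2 libraries is given with a 95% interval that covers counting error only and has no replicate check. Tests are additive edgeR quasi-likelihood fits of 4 libraries, 2 on each side, and leave 1 residual degree of freedom. A gene is called at a Benjamini-Hochberg adjusted p under 0.05 over all genes tested. In bulk RNA, fewer cells of a type and less RNA per cell cannot be told apart.

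The 8 members lie on chromosome 19 of the mouse GRCm38 (mm10) assembly between positions 11067471 and 11604804, a stretch of 537.3 kb in a 678.6 kb cluster that holds all 21 Ms4a genes. Ms4a8a stands alone, 239.9 kb from the next member, Ms4a7. The other 7 lie within 283.8 kb. Ms4a4b and Ms4a4c share 91.7% of their aligned coding bases, Ms4a6b and Ms4a6c 85.4%, Ms4a6b and Ms4a6d 81.2%, and Ms4a6c and Ms4a6d 79.0%. Between 59.3% and 68.3% was shared by every other pair. RSEM divides reads that fit several transcripts, so near-identical genes can trade counts. Counts were not whole numbers (within 0.005) in all 8 libraries for Ms4a4a, Ms4a6b, Ms4a6c and Ms4a6d, and in 5 of the 7 libraries with counts for Ms4a4b and Ms4a4c. They were whole in every library for Ms4a7 and Ms4a8a. Over all listed genes, 70.1% to 77.8% had whole counts in a library. For Ms4a4b, Ms4a4c, Ms4a6b, Ms4a6c and Ms4a6d, 2.92% (Ms4a6d) to 8.48% (Ms4a4c) of the 50-base windows of the transcript were shared within the family. Ms4a4a, Ms4a7 and Ms4a8a share no 50-base window with another gene of the family, so the genes with which Ms4a4a counts were divided were not identified. The Ms4a4b, Ms4a4c, Ms4a6b, Ms4a6c and Ms4a6d values are therefore uncertain in their division among paralogs, and the Ms4a4a values carry an uncertainty of the same kind. Its size was not measured.

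Promoter windows from RefSeq (GRCm38.p6) matched 7 of the 8 members, with none for Ms4a6d. The 250 bases before the start are shown for 5 members. These are Ms4a7 and Ms4a4a, which rose with IL-4, Ms4a8a, which was counted almost only in peritoneal macrophages, and the paralogs Ms4a4b and Ms4a4c, whose levels were far apart. Not shown are the windows of Ms4a6b and of Ms4a6c, the latter called higher with both cytokines. The starts used for Ms4a4a and Ms4a8a were not found in a transcript of the GENCODE annotation. Capitals mark a match to the STAT6 form of the GAS element (TTCNNNNGAA) in Ms4a7 or to the core of the PU.1 site (GAGGAA) in Ms4a4b and Ms4a4c. The windows are chr19:11336147-11336396 (minus strand) for Ms4a7, chr19:11375238-11375487 (plus strand) for Ms4a4a, chr19:11081104-11081353 (minus strand) for Ms4a8a, chr19:11443308-11443557 (plus strand) for Ms4a4b and chr19:11407411-11407660 (plus strand) for Ms4a4c.
Ms4a7: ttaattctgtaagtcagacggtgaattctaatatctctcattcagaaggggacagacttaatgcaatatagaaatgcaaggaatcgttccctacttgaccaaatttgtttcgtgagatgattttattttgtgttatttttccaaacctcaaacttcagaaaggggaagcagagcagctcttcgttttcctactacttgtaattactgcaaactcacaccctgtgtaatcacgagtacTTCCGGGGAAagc
Ms4a4a: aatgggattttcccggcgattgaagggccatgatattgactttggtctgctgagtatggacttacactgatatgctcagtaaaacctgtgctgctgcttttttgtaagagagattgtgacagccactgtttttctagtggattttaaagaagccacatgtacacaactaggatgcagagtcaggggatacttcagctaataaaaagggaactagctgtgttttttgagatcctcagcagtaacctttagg
Ms4a8a: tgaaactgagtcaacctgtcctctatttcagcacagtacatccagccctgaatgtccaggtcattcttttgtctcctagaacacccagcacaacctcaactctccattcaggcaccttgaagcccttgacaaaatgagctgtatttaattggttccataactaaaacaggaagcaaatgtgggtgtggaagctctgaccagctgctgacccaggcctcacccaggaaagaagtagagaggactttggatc
Ms4a4b: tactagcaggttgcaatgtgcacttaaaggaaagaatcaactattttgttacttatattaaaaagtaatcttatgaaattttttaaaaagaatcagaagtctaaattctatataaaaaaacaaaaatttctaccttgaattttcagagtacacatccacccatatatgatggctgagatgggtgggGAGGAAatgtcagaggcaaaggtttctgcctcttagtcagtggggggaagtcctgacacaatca
Ms4a4c: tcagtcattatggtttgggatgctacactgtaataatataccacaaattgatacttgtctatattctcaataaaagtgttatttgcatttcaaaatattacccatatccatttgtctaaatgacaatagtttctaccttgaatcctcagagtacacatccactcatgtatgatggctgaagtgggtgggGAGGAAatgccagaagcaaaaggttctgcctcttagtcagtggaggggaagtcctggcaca
The Ms4a4b and Ms4a4c windows were identical at 78.9% of 232 aligned bases, and both held GAGGAA, 64 to 59 bases before the start in Ms4a4b and 61 to 56 bases before it in Ms4a4c. The Ms4a6b and Ms4a6c windows were identical at 85.1% of 175 aligned bases and held none of the motifs searched. The match in Ms4a7 lay 13 to 4 bases before the start. Its other window is not shown and held none of the motifs searched. Both strands of the 8 member windows (Ms4a7 has 2) were searched for GAGGAA, for TTCNNNNGAA, for the GAS element TTCNNNGAA and for the core of the interferon-stimulated response element, GAAANNGAAA. No member window held either of the last 2. Of 32851 promoter windows of this length, 23.3% held GAGGAA, 5.85% TTCNNNNGAA, 7.02% TTCNNNGAA and 2.98% GAAANNGAAA. A match describes letters in a window and was not tied to binding of a factor.

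In untreated cells the family looked different in the 2 macrophage types. The summed level of the 8 members was 98.58 FPKM in WT and 76.17 FPKM in KO peritoneal macrophages, against 432.6 and 413.0 FPKM in bone marrow-derived macrophages. Ms4a6d led in peritoneal macrophages, with 49.8% to 55.6% of the summed level over the 4 libraries. Ms4a8a was second there, at 19.8% to 27.2%. In bone marrow-derived macrophages Ms4a7 led with 39.6% to 49.9%, followed by Ms4a6d and then Ms4a6c. The counting intervals of Ms4a8a and Ms4a7 overlapped in the WT untreated and the IFN-gamma-treated KO peritoneal libraries, as did those of Ms4a6d and Ms4a6c in both untreated bone marrow-derived libraries. The order of those neighbours was not separated there.

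**Figure D1:**
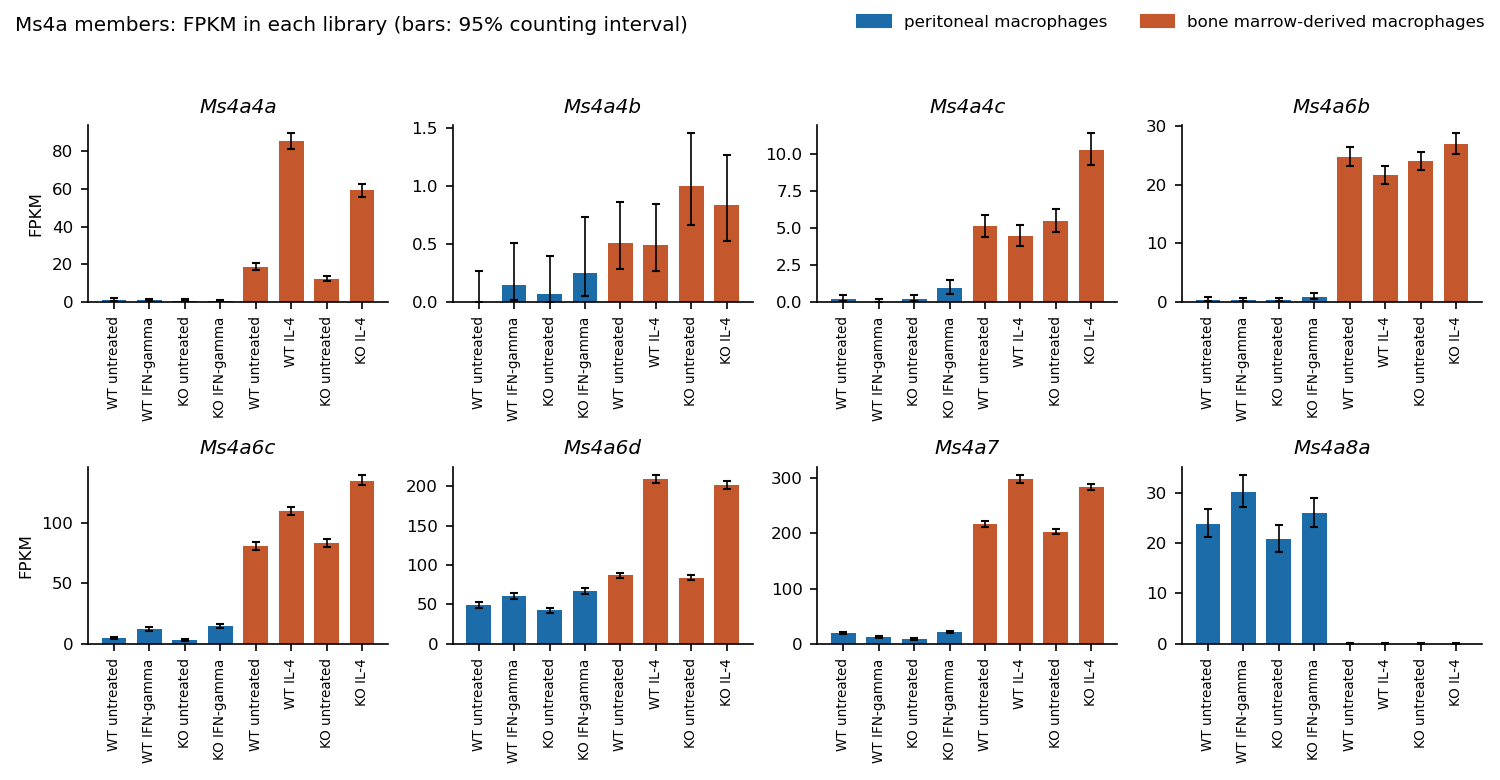
Level of each member (y axis, FPKM, linear and starting at 0, a separate scale for each gene) in each of the 8 libraries (x axis), 1 bar a library with its 95% counting interval. Ms4a8a reached 30.12 FPKM in peritoneal macrophages and at most 0.04 FPKM in bone marrow-derived macrophages, and Ms4a7 reached 21.36 and 298.03 FPKM.

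All 8 members were called between the 2 untreated cell types, 7 higher and 1 lower in bone marrow-derived macrophages. Over all genes tested 27.5% were called higher and 27.5% lower, so a call in this comparison was common. Cell type, culture and sequencing depth cannot be told apart in it. Scaling by library totals alone moved the median log2 difference of all genes by 0.201 and gave 4900 genes higher and 2437 lower, in place of 3546 and 3556, and the 8 members kept their direction and their call.

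Ms4a6b, a close relative of Ms4a6c, had the largest log2 difference among the 7 that were higher. Its level was 0.35 and 0.23 FPKM in untreated WT and KO peritoneal macrophages and 24.78 and 24.06 FPKM in bone marrow-derived macrophages, a log2 difference of 6.25 (SE 0.251, adjusted p = 5.97e-11). Its paralog Ms4a6c, often seen in monocytes, was at 4.82 and 3.40 FPKM against 80.59 and 83.07 FPKM, a log2 difference of 3.91 (SE 0.16, adjusted p = 7.17e-11). Both genes had no overlap between the 2 cell types, but how many of all genes had none was not counted. The summed level of 10 monocyte markers was also higher in the bone marrow-derived libraries. Untreated, it was 119.2 (WT) and 116.8 FPKM (KO) against 10.63 and 10.98 FPKM. Cx3cr1 alone was 74.99 and 78.32 FPKM of the higher sums. The part of monocyte-like cells in the difference was not tested. Ms4a6d, reported to form a membrane complex with the receptor VSIG4, differed least. It was at 49.09 and 42.37 FPKM in peritoneal and 86.89 and 84.12 FPKM in bone marrow-derived macrophages, a log2 difference of 0.70 (SE 0.112, adjusted p = 9.39e-05). So the 3 Ms4a6 genes ran from near absence to the leading level in peritoneal cells, while in bone marrow-derived cells all 3 were above 20 FPKM.

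Ms4a7, used in brain tissue as a marker of macrophages that come from the blood, was at 19.35 and 8.65 FPKM in untreated WT and KO peritoneal macrophages and 216.1 and 202.97 FPKM in bone marrow-derived macrophages (log2 difference 3.76, SE 0.2, adjusted p = 1.06e-09). In every bone marrow-derived library it ranked in the top 1.24% to 1.91% of listed genes. Ms4a4a was at 1.06 and 0.55 FPKM against 18.66 and 12.33 FPKM (log2 difference 4.06, SE 0.276, adjusted p = 1.48e-08). Both genes were higher in each bone marrow-derived library than in any peritoneal library, treated or not. The share of all genes with that order was not counted.

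Ms4a4c and Ms4a4b shared most of their coding sequence but not their level. Ms4a4c was at 0.16 FPKM in each untreated peritoneal library and 5.11 and 5.46 FPKM in the bone marrow-derived ones (adjusted p = 7.73e-08). From 3 counts in each peritoneal library, the ratio was 31.5 in WT (10.6 to 154) and 34.1 in KO (11.5 to 167). Ms4a4b, known mainly from T cells, was at 0 and 0.07 FPKM against 0.51 and 1.00 FPKM (adjusted p = 0.0023; DESeq2 0.102). That rested on 0 and 1 counts against 13.73 and 26.69. The level was 2.34-fold higher in WT against a floor of 3 counts (lower 95% counting bound 1.7) and 14-fold in KO (2.3 to 571). Of 16 T and NK cell markers, Cd3e, Cd3g, Trbc2, Ncr1, Nkg7 and Gzma were at 0 in all 4 bone marrow-derived libraries. The summed level of the list in WT and KO was 4.68 and 3.39 FPKM untreated and 3.34 and 2.05 FPKM with IL-4. Cd4 was the highest marker in each of these libraries, at 0.89 to 2.84 FPKM. The sum was lower in KO. The KO to WT ratio of Ms4a4b was 1.93 (0.976 to 3.98) untreated and 1.64 (0.79 to 3.54) with IL-4, and both intervals included 1. The part of T cells in the Ms4a4b level was not tested.

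Ms4a8a, which has been reported in macrophages given IL-4 with a glucocorticoid, went the other way. It was at 23.75 and 20.74 FPKM in untreated WT and KO peritoneal macrophages, from 282 and 249 counts. In the bone marrow-derived libraries it had no count in 3 and 1 count, 0.04 FPKM, in KO cells with IL-4. Set against a floor of 3 counts per library, it was 184-fold lower in WT and 161-fold lower in KO untreated bone marrow-derived macrophages (adjusted p = 1.13e-10). The lower 95% counting bounds of these folds were 149 and 130. IL-4 for 6 hours in these cultures gave no level above the floor.

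**Figure D2:**
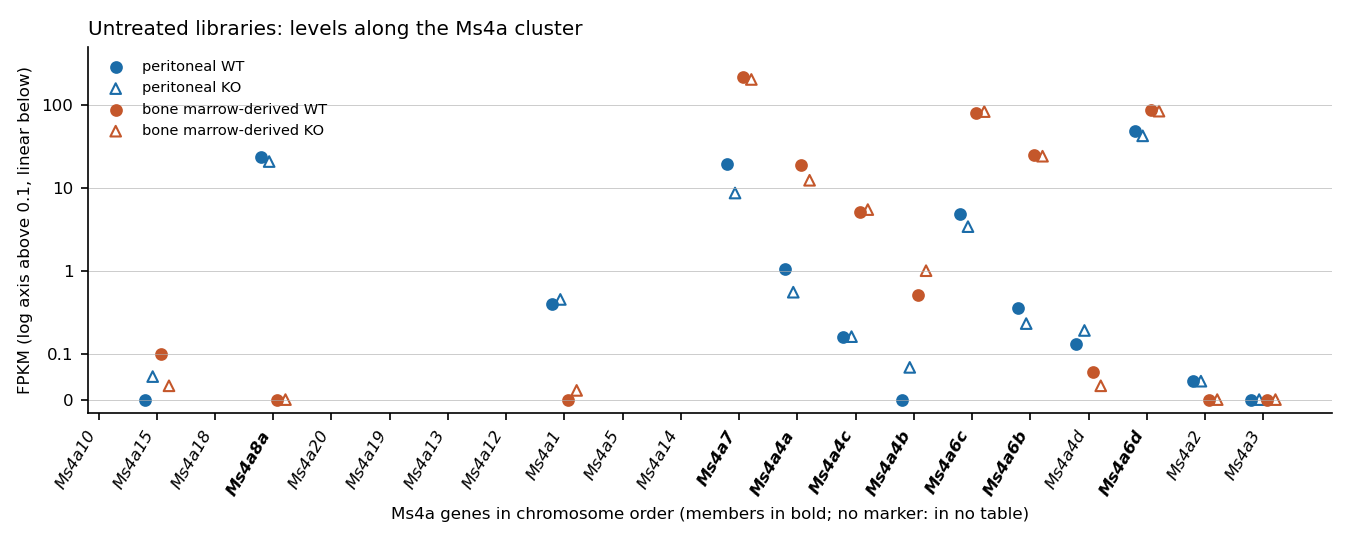
Level in untreated libraries (y axis, FPKM, log scale above 0.1 and linear below) of the Ms4a genes in chromosome order (x axis), with circles for WT and triangles for KO, blue for peritoneal and orange for bone marrow-derived macrophages. Ms4a8a is the gene with high peritoneal and 0 bone marrow-derived levels, and the genes from Ms4a7 to Ms4a6b are higher in bone marrow-derived macrophages.

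The other listed Ms4a genes were low. Ms4a1 was at 0.40 to 0.53 FPKM in peritoneal macrophages and 0 to 0.02 in bone marrow-derived ones (adjusted p = 0.000413). Untreated, it was 5.87-fold lower in WT bone marrow-derived macrophages against the floor of 3 counts (lower 95% counting bound 3.86). The ratio in KO was 0.0517 (0.00119 to 0.363). The summed level of 10 B cell markers, which include Ms4a1, was 32.77 to 41.64 FPKM and 6.44 to 7.45 FPKM in the same libraries. Ms4a2 was at no more than 0.07 FPKM, Ms4a15 at no more than 0.10 FPKM, and Ms4a3 had 2 counts in 1 library. The related Tmem176a and Tmem176b, which lie outside the cluster, were at 8.78 to 14.07 and 19.75 to 30.58 FPKM over the 8 libraries and were slightly lower in untreated bone marrow-derived macrophages (log2 difference -0.61, adjusted p = 0.00688, and -0.46, adjusted p = 0.00561). Of the 10 measured genes on each side of the cluster 13 were tested. Only Cd5 was called higher in bone marrow-derived macrophages, and 9 were called lower (Vps37c, Slc15a3, Tmem132a, Tmem109, Ptgdr2, Mrpl16, Stx3, Patl1 and Mpeg1).

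IL-4 raised 4 of the 7 members tested in bone marrow-derived macrophages, and lowered none. Over all genes tested 12.0% were called higher and 9.23% lower. Ms4a4a was at 18.66 FPKM in untreated and 85.42 FPKM in IL-4-treated WT cells, and at 12.33 and 59.25 FPKM in KO cells (log2 change 2.26, SE 0.067, adjusted p = 2.36e-08). The ratio of treated to untreated was 4.58 in WT (95% counting interval 4.1 to 5.13) and 4.79 in KO (4.19 to 5.51). With IL-4 the gene moved into the top 5.18% (WT) and 7.92% (KO) of listed genes.

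Ms4a6d was at 86.89 and 208.93 FPKM in untreated and treated WT cells and 84.12 and 201.92 FPKM in KO cells (log2 change 1.30, SE 0.049, adjusted p = 1.1e-07). The fold was 2.4 in each genotype. Ms4a6c was at 80.59 and 109.22 FPKM in WT and at 83.07 and 134.58 FPKM in KO (log2 change 0.59, SE 0.062, adjusted p = 0.000101). Ms4a7 was at 216.1 and 298.03 FPKM in WT and at 202.97 and 284.07 FPKM in KO (log2 change 0.51, SE 0.046, adjusted p = 3.2e-05). In a fit of all 8 libraries the Ms4a7 change was 0.49 with an adjusted p of 0.391.

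The 3 members that did not pass the test were Ms4a4b, Ms4a4c and Ms4a6b. Ms4a4b was at 0.51 and 0.49 FPKM in WT and 1.00 and 0.83 FPKM in KO (log2 change -0.17, adjusted p = 0.767). Ms4a4c was at 5.11 and 4.47 FPKM in WT and 5.46 and 10.27 FPKM in KO (log2 change 0.47, adjusted p = 0.141; 0.46 and 0.00377 without a filter on low counts). Only the KO library with IL-4 stood above the other 3, by 1.88-fold over untreated KO (1.58 to 2.25), while the WT ratio was 0.873 (0.701 to 1.09). Ms4a6b was at 24.78 and 21.63 FPKM in WT and 24.06 and 27.00 FPKM in KO (log2 change 0.03, adjusted p = 0.848, with values of -0.01 on library totals and -0.01 with limma). Its WT ratio was 0.873 (0.791 to 0.964) and its KO ratio 1.12 (1.02 to 1.23), on either side of 1.

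**Figure D3:**
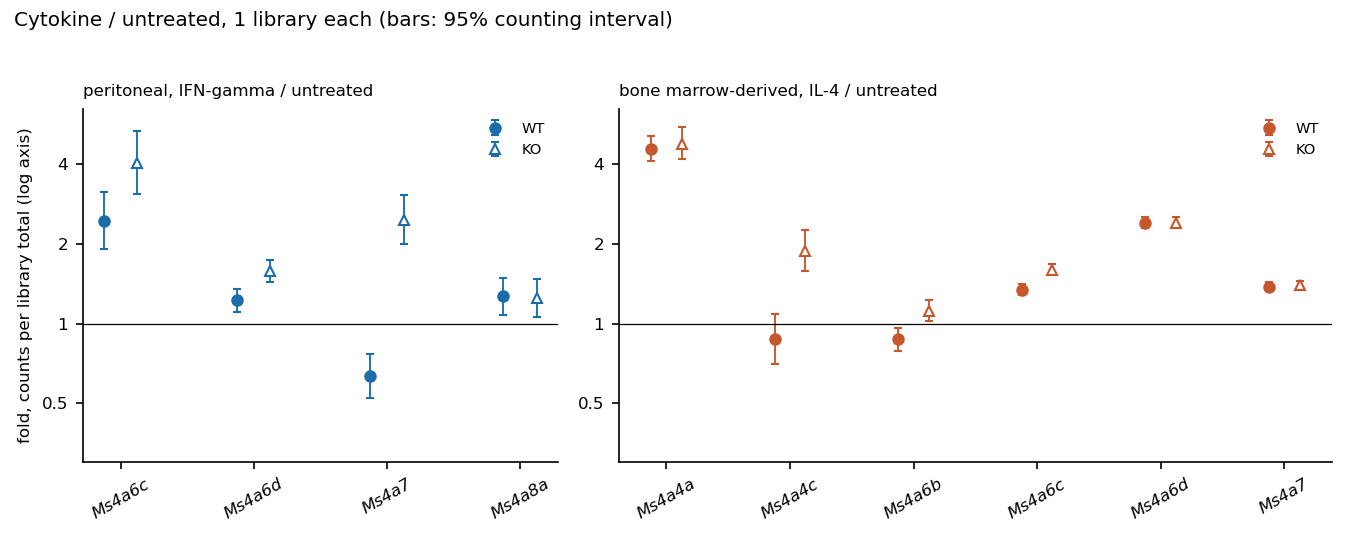
Fold of cytokine-treated over untreated (y axis, log scale, expected counts per library total) for members whose 4 libraries of a cell type averaged 1 FPKM or more, filled circles for WT and open triangles for KO, with 95% counting intervals. Ms4a4a lies above 4 in both genotypes with IL-4, and Ms4a7 lies at 0.634 in WT and 2.46 in KO peritoneal macrophages with IFN-gamma.

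Of 28 listed IL-4 and STAT6 target genes, 27 were tested and 24 rose with IL-4, with a median log2 change of 3.07 against -0.003 over all genes. That median was the same with the 2 genes that had no untreated count set at their bounds. Those were Retnla, at 20.97 and 10.65 FPKM with IL-4 in WT and KO, and Rnase2a, at 3.07 and 3.58 FPKM. Arg1 (7.04) and Cdh1 (6.35) had the next largest log2 changes. All 4 members that rose had log2 changes below that median. Among 13 genes for reported partners of MS4A proteins, 12 were tested, 2 rose and 3 fell. Clec7a, whose product Dectin-1 is the reported partner of MS4A4A, was at 37.11 and 172.51 FPKM in untreated and treated WT cells and 36.41 and 162.93 FPKM in KO cells (log2 change 2.23, SE 0.051, adjusted p = 4.62e-09). Its log2 change stood beside 2.26 for Ms4a4a. Adam10, a membrane protease, rose by 0.46, and the kinase genes Lyn and Syk fell by 0.46 and 0.25 on the log2 scale. Of 12 flanking genes tested, Slc15a3, Tmem132a, Tmem109, Prpf19, Ccdc86, Stx3 and Patl1 rose with IL-4 and Mpeg1 fell. In peritoneal macrophages Clec7a was at 280.29 to 445.81 FPKM while Ms4a4a was at 0.45 to 1.06 FPKM.

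IFN-gamma raised 3 of the 4 members tested in peritoneal macrophages, where Ms4a4a, Ms4a4b, Ms4a4c and Ms4a6b were too low to be tested. Over all genes 17.2% were called higher and 14.9% lower. Ms4a6c was at 4.82 and 12.43 FPKM in untreated and treated WT cells and 3.40 and 14.54 FPKM in KO cells (log2 change 1.73, SE 0.213, adjusted p = 0.00214). The ratio of treated to untreated was 2.44 in WT (1.92 to 3.13) and 4.04 in KO (3.09 to 5.35). The RSEM length of Ms4a6c was 1844 bases in the untreated libraries and 1749.06 and 1732.35 in the treated ones.

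Ms4a6d was at 49.09 and 60.29 FPKM in WT and 42.37 and 66.84 FPKM in KO (log2 change 0.57, SE 0.132, adjusted p = 0.0211; DESeq2 0.0622). Ms4a8a was at 23.75 and 30.12 FPKM in WT and 20.74 and 25.96 FPKM in KO (log2 change 0.43, SE 0.113, adjusted p = 0.0334). The call of Ms4a8a was lost with DESeq2 (adjusted p = 0.431), on library totals (0.0824) and with limma (0.062). Both genes had treated libraries above untreated ones, and the share of all genes with that order was not counted.

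Ms4a7 did not pass the test (log2 change 0.39, SE 0.438, adjusted p = 0.542), and its 4 libraries crossed. It was at 19.35 FPKM untreated and 12.24 FPKM with IFN-gamma in WT, and at 8.65 FPKM untreated and 21.36 FPKM with IFN-gamma in KO, from 276, 179, 125 and 309 counts. The WT ratio was 0.634 (0.522 to 0.768) and the KO ratio 2.46 (1.99 to 3.05). The KO response exceeded the WT response by 1.83 on the log2(FPKM + 1) scale. On counts alone the difference was 1.958 (1.553 to 2.362). Opposite responses with both intervals off 1 were seen in 129 of 10670 genes in peritoneal macrophages (1.21%), Ms4a7 among them.

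Among the members too low to test, the library of KO cells with IFN-gamma was the highest for 3. Ms4a4c was at 0.16, 0, 0.16 and 0.93 FPKM, Ms4a6b at 0.35, 0.28, 0.23 and 0.89 FPKM and Ms4a4b at 0, 0.14, 0.07 and 0.25 FPKM, each in the order WT untreated, WT treated, KO untreated, KO treated. These values rest on at most 17.58 counts. Ms4a4b had 3.42 counts in KO cells with IFN-gamma. The intervals of its ratio to untreated KO (0.24 to 157) and to treated WT cells (0.173 to 18.1) included 1. Among the peritoneal libraries, only that one had counts of Ms4a4b and its paralog Ms4a4c that were not whole numbers. How many of all genes were highest in that library was not counted. The T and NK cell marker sum in the 4 peritoneal libraries, in the same order, was 4.56, 7.04, 6.03 and 13.32 FPKM. Cd3g, Trbc2, Ncr1, Nkg7 and Gzma were at 0 in all 4. The sum was also highest in KO cells with IFN-gamma, mostly from Lck (6.24 FPKM) and Cd3d (3.2 FPKM). Not all markers followed: Cd2 was at 0 in that library and at 0.64 to 0.74 FPKM in the others. Type I interferon response genes were also higher in that library, with Ifit2 at 0.26, 47.98, 0.71 and 202.68 FPKM. The part of neither list in the values was tested. Ms4a4a was at 1.06, 0.74, 0.55 and 0.45 FPKM in that order, and the counting interval of each of its 4 peritoneal ratios included 1.

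Ms4a4d, a family gene that is no member here, rose with IFN-gamma (adjusted p = 0.00415). It was at 0.13 and 1.29 FPKM in WT and 0.19 and 1.49 FPKM in KO, from at most 24 counts, at ratios of 10.3 (2.51 to 90.3) and 7.97 (2.42 to 41.3). Inside the cluster, the long noncoding RNA gene AW112010 also rose (log2 change 4.70, adjusted p = 0.000104), with 0.84 and 15.8 FPKM in WT and 1.19 and 34.7 FPKM in KO. Of 12 flanking genes tested, Ptgdr2, Ccdc86, Stx3 and Mpeg1 rose and Tmem132a and Tmem109 fell. Of 30 listed type I interferon response genes, 29 were tested and 28 rose, with a median log2 change of 3.31 against -0.01 over all genes. Among the reported partners 9 were tested. Lyn (1.80) and Adam17 (0.69) rose, and Trem2, a lipid receptor of macrophages, fell by 0.54 on the log2 scale.

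The Slc6a8 genotype called 1 member. In bone marrow-derived macrophages 7 were tested, 1 fell in KO and none rose, where 3.68% of all genes were called lower and 1.51% higher. That member was Ms4a4a, at 18.66 and 12.33 FPKM in untreated WT and KO cells and 85.42 and 59.25 FPKM with IL-4 (log2 difference -0.55, SE 0.065, adjusted p = 0.00126). The KO library was below the WT library in both treatments, at ratios of 0.662 (0.563 to 0.777) untreated and 0.693 (0.644 to 0.746) with IL-4. Its IL-4 response differed between genotypes by 0.04 on the log2(FPKM + 1) scale (0.07 on counts, -0.182 to 0.321). The summed level of 10 fibroblast and mesothelium markers was also lower in KO, at 376.2 and 200.6 FPKM untreated and 354.1 and 172.4 FPKM with IL-4 in WT and KO, mostly from Col1a1 and Col1a2, with Msln, Upk3b and Wt1 at 0 in all 4. Its part in the Ms4a4a difference was not tested.

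Ms4a4c was at 5.11 and 5.46 FPKM untreated and 4.47 and 10.27 FPKM with IL-4 in WT and KO (log2 difference 0.68, adjusted p = 0.0952; 0.0197 on library totals and 2.13e-05 without a filter). Its KO to WT ratio was 1.07 (0.871 to 1.31) untreated and 2.31 (1.91 to 2.8) with IL-4. Ms4a6c had ratios of 1.06 (1.0 to 1.12) and 1.26 (1.21 to 1.32), with a log2 difference of 0.21 (adjusted p = 0.0861; 0.0345 on library totals and 0.00462 without a filter). Neither gene passed the main test. Ms4a4b was at 0.51 and 1.00 FPKM untreated and 0.49 and 0.83 FPKM with IL-4 in WT and KO (log2 difference 0.83, adjusted p = 0.229). Ms4a6b, Ms4a6d and Ms4a7 had log2 differences of 0.14, -0.05 and -0.08 (adjusted p = 0.446, 0.708 and 0.437).

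In bone marrow-derived macrophages 1 of 30 type I interferon response genes tested was called higher in KO, with a list median of 0.54 against 0.00 over all genes. Of 27 IL-4 and STAT6 target genes 2 were called higher and 6 lower, with a median of -0.14. Retnla, Arg1, Tfrc and Egr2 were among the 6 lower genes (log2 differences -0.98, -0.90, -0.66 and -0.44), the direction of Ms4a4a. Tmem176a was lower in KO (log2 difference -0.52, SE 0.109, adjusted p = 0.0247).

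In peritoneal macrophages 4 members were tested for genotype and edgeR called none, with 0 at an unadjusted p under 0.05 and 0 called with DESeq2. Only 0.0249% of all genes were called higher and 0.0083% lower. Ms4a8a had the largest log2 difference, -0.21 (SE 0.113, adjusted p = 0.45), at ratios of 0.873 (0.733 to 1.04) and 0.861 (0.738 to 1.0). Ms4a7 had a KO to WT ratio of 0.448 (0.359 to 0.555) untreated and 1.74 (1.44 to 2.1) with IFN-gamma, so its log2 difference over both was -0.15 (adjusted p = 0.902). Ms4a6d had ratios of 0.862 (0.775 to 0.96) and 1.11 (1.01 to 1.21), also on either side of 1, and Ms4a6c 0.7 (0.505 to 0.965) and 1.16 (0.971 to 1.38). The additive fit puts such crossings into its residual. Of 29 type I interferon response genes tested, 1 (Ifit2) was called higher in KO peritoneal macrophages, with a list median of 1.48 against 0.008 over all genes.

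**Figure D4:**
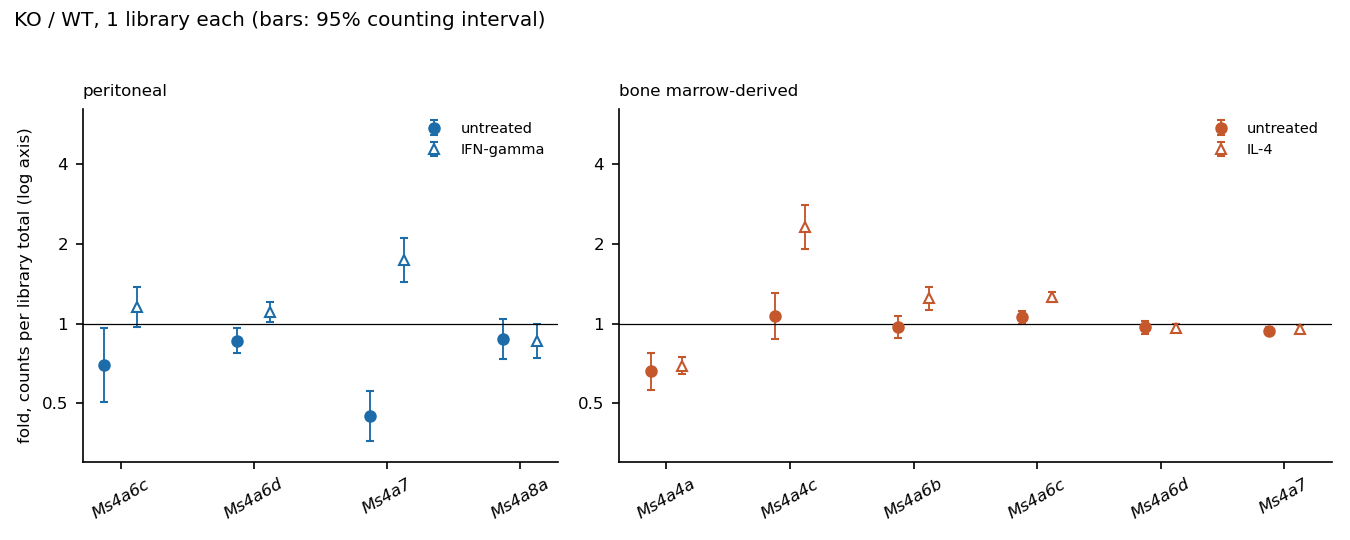
Fold of KO over WT (y axis, log scale, expected counts per library total) for members whose 4 libraries of a cell type averaged 1 FPKM or more, filled circles for untreated and open triangles for cytokine-treated cells, with 95% counting intervals. Ms4a4a lies at 0.662 and 0.693 in bone marrow-derived macrophages, and Ms4a7 lies at 0.448 and 1.74 in peritoneal macrophages.

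Across both cell types, limma on the 4 differences between KO and WT libraries, on log2(FPKM + 1), tested 3 members and called none, with 0 at an unadjusted p under 0.05. Ms4a6c, Ms4a6d and Ms4a7 had mean differences of 0.04, -0.04 and -0.12 (adjusted p = 0.927, 0.858 and 0.885). Over all genes 0.00993% were called. Stimulated and untreated libraries may share animals, which the labels do not say.

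The genes listed here had the centred log2(FPKM + 1) profiles over the 8 libraries that lay nearest to a member's. They were taken from 10993 genes that averaged 1 FPKM or more. Angptl2 recurred for Ms4a4a, Ms4a6b and Ms4a7, and Dab2 for Ms4a4a and Ms4a7, while the others were each near 1 member only. The measure is the root mean square difference, in log2 units. For Ms4a4a they were Pald1 (0.41), Dab2 (0.53) and Angptl2 (0.60). For Ms4a7 they were Ms4a6b (0.32), Dab2 (0.35) and Angptl2 (0.36), and Ms4a6b was the one family member among any member's 3 nearest genes. Mki67 (0.24), Fxyd2 (0.27) and Angptl2 (0.31) lay nearest to Ms4a6b. For Ms4a6c they were Slc7a8 (0.25), Ifi27l2a (0.27) and Ccr2 (0.36), the last a chemokine receptor of monocytes. Plk3 (0.12), Slc30a4 (0.15) and Azin2 (0.21) lay nearest to Ms4a6d. For Ms4a4c they were Cd207 (0.32), Ell2 (0.36) and Rpl34-ps1 (0.37). For Ms4a8a they were Slc7a11 (0.14), the cystine transporter gene, 2410017I17Rik (0.19) and Acat3 (0.21). Ms4a4b was too low for this measure. All profiles share the same 8 libraries.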

How the data were processed

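RNA was sequenced from 8 macrophage cultures, 1 library per group. Per the submitters' processing notes, reads were aligned with Bowtie2 2.2.5 to mm10 and quantified with RSEM (version not given). The authors deposited 1 table per library with expected counts and FPKM per gene, and a gene not listed in a table was set to 0. Expected counts were rounded and tested in R 4.3.3 with the quasi-likelihood test of edgeR 4.0.16, after filterByExpr and TMM scaling, in additive fits of stimulus and genotype within a cell type and of cell type and genotype in untreated libraries. Each SE comes from the F statistic (absolute log2 change over root F). KO minus WT differences were tested with limma 3.58.1, and DESeq2 1.42.0 was an alternative. FPKM ratios used a pseudocount of 1. Counting intervals of levels and of ratios of 2 libraries are exact (95%) on rounded expected counts. Those of differences between responses are normal approximations (95%). PCR duplicates are not independent molecules, and all these intervals cover counting error only. Genes were named from RefSeq (18076 of 18125; 42 from the deposited symbol, 7 unnamed). The members, lists and tests were chosen with earlier results of these data known. All 8 members are named in each comparison, the other Ms4a genes by level, and of each list up to 4 called genes with the largest change. Antisense and overlapping genes cannot be told apart where strand was not used, which was not given in the sources used here. For 1 gene list the result is not reported here.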

Additional observations from a re-analysis of the deposited data

Results flagged for a closer look

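Responses or genotype differences that lay on opposite sides of 1 in the 2 pairs of libraries, each beyond counting error, were seen for 3 members, and none of these differences was tested. In peritoneal macrophages Ms4a7 was lower with IFN-gamma in WT and higher in KO, a difference between the responses of 1.832 on the log2(FPKM + 1) scale. The same number, 1.832, is the change of its KO minus WT difference from untreated to IFN-gamma-treated cells. Ms4a6d in peritoneal macrophages was lower in KO untreated and higher in KO with IFN-gamma, a change of 0.354. Ms4a6b in bone marrow-derived macrophages was lower with IL-4 in WT and higher in KO, a difference of 0.348. Opposite cytokine responses, as for Ms4a7 and Ms4a6b, were found in 129 of 10670 genes in peritoneal macrophages (1.21%) and 176 of 10906 in bone marrow-derived macrophages (1.61%). Those shares do not cover opposite genotype differences, as for Ms4a7 and Ms4a6d, which were not counted over all genes.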

How the results depend on the processing

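With 1 library a group, the 4-library edgeR fits have 1 residual degree of freedom and leaving out a library leaves none, while the 8-library fit has 2. Intervals cover counting error only. No pairing by animal or replicate was possible, because each group has 1 replicate and replicate numbers pair nothing. Genotypes were compared within treatments. The limma test over both cell types used the 4 KO minus WT differences, each within a cell type and treatment. Of the counts of called members, 28 of 31 alternative values stayed within 1.5 times the main count. IFN-gamma called 1 member with DESeq2 in place of 3, and genotype in bone marrow-derived macrophages called 3 on library totals and 3 without a filter on low counts in place of 1. The IL-4 change of Ms4a6b turned from 0.029 to -0.01 on library totals and -0.014 with limma, none called. The cause was not tested. Of the other single-member values 161 kept direction and call, 6 lost and 5 gained a call. Of 80 ratios 1 moved, and of 20 differences between responses none did. Over all genes, DESeq2 called 1251 up and 837 down for IFN-gamma (2077 and 1796 in the main fit), 662 and 401 for IL-4 (1542 and 1189), 2141 and 2115 for cell type (3546 and 3556) and 44 and 111 for genotype in bone marrow-derived macrophages (195 and 474). The fit of all 8 libraries called 617 and 412 for IL-4 and 21 and 126 for that genotype term, limma 997 and 974 and 63 and 182, and the unfiltered fit 527 and 726 for genotype. On library totals genotype called 364 and 676, and IL-4 1385 up and 1758 down. IFN-gamma called 1637 up and 2092 down on library totals and 1494 and 1776 with limma. Genotype in peritoneal macrophages called 3 and 1 in the main fit, 0 and 0 with limma, 1 and 1 on library totals, 12 and 5 with RLE scaling, 17 and 22 with DESeq2, 26 and 26 unfiltered and 26 and 51 in the 8-library fit.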
